A study of Mus musculus with 18 samples.

Results

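The genes described here are those carried by mitochondrial DNA (mtDNA), chosen as every gene of the deposited expression table whose symbol begins with mt-. They number 37 of the 32675 genes in the table, all lie on chromosome MT, and they comprise 13 mRNA genes, 2 rRNA genes and 22 tRNA genes. RNA came from the kidneys of male wild type C57BL/6 mice labelled as 6 weeks old, 6 mice in each of 3 groups. Ctrl mice were handled and not defeated. Mice of the other groups met an aggressive CD-1 mouse for 10 min per day over 14 days, a protocol called chronic social defeat stress (CSDS), and received intraperitoneal PBS (the PBS group, labelled StressPbs) or fluoxetine (FLX, an antidepressant that blocks serotonin reuptake) at 10 mg/kg per day (the FLX group, labelled StressFlx). Undefeated mice given FLX are not among these groups, so each FLX effect was measured in defeated mice. The study left out a PBS mouse with high inflammatory gene expression without naming it. PBS replicate 6 (PBS 6) had the highest S100a8 in the series, at 22.1 FPKM (fragments per gene scaled by gene length and library depth) against 7.65 at most in the other mice, and was left out here, so that 17 mice entered the tests.

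Mammalian mtDNA is a small circle that is transcribed from both strands into long precursors. Most protein genes and both rRNA genes are flanked by tRNA genes, and cutting out the tRNAs releases the mRNAs and rRNAs between them. The mRNAs encode core subunits of the respiratory chain, the rRNAs build the mitochondrial ribosome, and the tRNAs decode the mRNAs. Kidney tubules are rich in mitochondria because solute transport consumes much ATP. In the mouse, 28 of the genes lie on the + strand of the reference and are read as the heavy-strand transcript. The other 9, mt-Nd6 and 8 tRNA genes, lie on the - strand and are called light-strand genes below. The name gives the strand of the gene only, because the sources used here do not state whether reads were counted by strand.

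The tRNA genes whose RNA differed between groups are printed first because their size bears on what was counted. They are given 5′ to 3′ as DNA from the GENCODE transcripts of GRCm38, with the anticodon in capitals. In order they carry leucine (MT:2676-2750, + strand), threonine (MT:15289-15355, + strand), glutamate (MT:14071-14139, - strand) and proline (MT:15356-15422, - strand).
mt-Tl1: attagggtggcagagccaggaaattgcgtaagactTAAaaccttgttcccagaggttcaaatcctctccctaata
mt-Tt: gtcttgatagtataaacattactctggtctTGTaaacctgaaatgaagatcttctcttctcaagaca
mt-Te: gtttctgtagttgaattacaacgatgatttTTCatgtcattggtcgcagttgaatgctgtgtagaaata
mt-Tp: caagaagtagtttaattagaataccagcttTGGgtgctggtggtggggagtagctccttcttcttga
The 22 tRNA genes span 59 to 75 bases, while the libraries were made from poly(A)-selected RNA with inserts of 300 ± 50 bp. A fragment of that length that covers a tRNA gene extends into its neighbours, so a tRNA level in these data is read from longer RNAs that hold the tRNA sequence.

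Neighbouring genes also share bases. The last 43 bases of mt-Atp8 are the first 43 of mt-Atp6, shown here in capitals with 15 bases of each gene on either side (MT:7912-7984, + strand), so these 2 values are not independent.
mt-Atp8: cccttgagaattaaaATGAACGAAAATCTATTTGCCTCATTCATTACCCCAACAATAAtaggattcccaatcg
Mouse chromosome 1 carries a near-perfect copy of part of mtDNA. The copy of mt-Nd3, Gm28438, differs from it by a single substitution over 345 bases, T3C, counted from 1 at the 5′ end of mt-Nd3. The stretch that holds it is printed for the gene (MT:9459-9519, + strand) and the copy (chr1:24613059-24613119, - strand), with the differing base in capitals.
mt-Nd3: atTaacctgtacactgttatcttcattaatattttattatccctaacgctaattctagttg
Gm28438: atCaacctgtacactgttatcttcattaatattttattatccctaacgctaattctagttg

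Total counts were 72149987 to 79061296 in 14 mice and 48928823 to 52073640 in FLX 3 to 6. The kidney markers Slc34a1 (a proximal tubule phosphate transporter), Umod (uromodulin of the thick ascending limb) and Aqp2 (the collecting duct water channel) were detected in every mouse, and 6 skeletal and heart muscle markers summed to at most 1.12 FPKM. PBS 6 had 362 FPKM of Slc34a1, against 678 to 912 in the other mice. Markers of brown fat, which is rich in mitochondria and lies around the kidney, summed over 6 genes to 16.1 to 98.7 FPKM in Ctrl, 32.6 to 795 in PBS and 23.2 to 407 in FLX, with the highest values in PBS 5 and FLX 5. Ucp1, Elovl3, Cox8b and Dio2, which are among them, were listed at 0 in at least 1 mouse. All 5 erythroid markers were detected in every mouse and summed to 38.7 to 772 FPKM in Ctrl, 145 to 2129 in PBS and 32.3 to 295 in FLX. The 6 neutrophil markers summed to 1.27 to 3.21 FPKM in Ctrl, 6.57 to 25.7 in PBS and 0.219 to 4.76 in FLX, and S100a8, S100a9, Ly6g, Mmp8 and Retnlg were at 0 in at least 1 mouse. In PBS against Ctrl, edgeR called 1 of 6 brown fat markers, 2 of 5 neutrophil markers tested and 0 of 5 erythroid markers, all higher (4, 4 and 0 at an unadjusted p under 0.05, and 2, 4 and 0 in DESeq2). Of all genes tested, 2.14% were called higher there (9.18% at an unadjusted p under 0.05, and 3.92% in DESeq2). In FLX against PBS edgeR called 0, 1 and 0, lower (0, 4 and 5 at an unadjusted p under 0.05, and 0, 2 and 5 in DESeq2), beside 0.420% of all genes (5.38% and 1.22%). In FLX against Ctrl it called 0, 0 and 0 (2, 1 and 0 higher at an unadjusted p under 0.05, and 1, 0 and 0 in DESeq2), beside 2.08% of all genes higher (10.2% and 4.58%). Erythroid markers were highest in PBS 2 and PBS 4, and neutrophil markers in PBS 4 among the 17 mice. The part of these cells in the results that follow was not tested. For single genes called below, each call lost without 1 mouse, or without PBS 5 and FLX 5 together, is marked beside it.

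The search for copies listed 7 genes on chromosome 1, with levels near or below those of their mtDNA genes in this table. It took matches of at least 100 bases, so the tRNA genes, of 59 to 75 bases, could not be listed. The tRNA genes mt-Ts1, mt-Td, mt-Tk, mt-Tg and mt-Tr lie between mtDNA genes with a listed copy. Whether the chromosome 1 copy affects their levels was not tested. Where the copy covers nearly all of an mtDNA gene at 99.7% identity or more, its FPKM in the 18 mice was 0.976 to 0.999 times that of mt-Co2 (copy Gm28661), 0.980 to 0.997 times mt-Co3 (Gm28437), 1.03 to 1.05 times mt-Atp6 (Gm10925), 0.9946 to 1.002 times mt-Nd3 (Gm28438) and 0.994 to 1.01 times mt-Nd4l (Gm10222). Copies that hold a part of mt-Nd4 (Gm28439) and mt-Co1 (Gm29216) were at 0.470 to 0.573 and 0.426 to 0.584 times the gene. In contrast, 4 copies on chromosomes 2 and 13 with 95.2% to 97.6% identity were at 0.00512 times their gene or less. The plot of these ratios shows both sets apart. Levels of the 7 mtDNA genes with a near-perfect copy are therefore uncertain in size. No such copy of mt-Nd1, mt-Nd2, mt-Nd5, mt-Nd6, mt-Cytb or mt-Atp8 is a separate gene in the table. However, mt-Atp8 lies between mt-Co2 and mt-Atp6, which both have a near-perfect copy, and shares 43 bases with mt-Atp6. Its level may be uncertain in the same way, which was not tested.

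**Figure D1:**
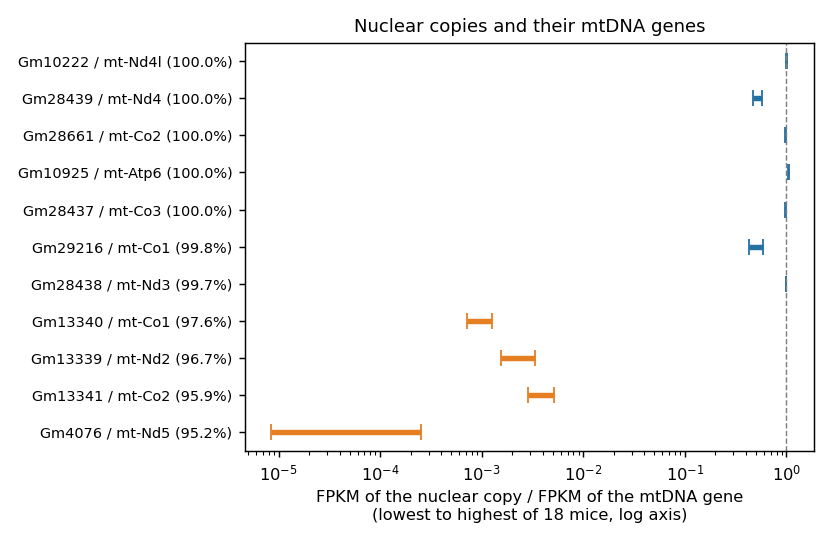
FPKM of each nuclear copy divided by the FPKM of its mtDNA gene on a log axis, as a bar from the lowest to the highest of 18 mice. Rows name the copy, the mtDNA gene and the identity, blue marks identity of at least 99% and orange lower identity. Blue bars lie between 0.426 and 1.05, and orange bars at 0.00512 or less.

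The first question was whether defeat or FLX changed how much of the kidney RNA came from mtDNA. The share of all counts on the 37 genes in Ctrl 1 to 6 was 10.4%, 9.75%, 12.4%, 9.30%, 9.42% and 10.8%. In PBS 1 to 5 it was 9.40%, 10.2%, 10.4%, 12.004% and 11.6%, and in PBS 6 it was 9.36%. In FLX 1 to 6 it was 9.35%, 9.997%, 10.53%, 9.18%, 9.24% and 10.6%. The 3 groups overlapped over most of their range, and the highest mouse of the series was Ctrl 3. Means were 10.3% ± 1.17 in Ctrl (SD, n = 6), 10.7% ± 1.07 in PBS (n = 5) and 9.82% ± 0.655 in FLX (n = 6). The difference was 0.382 percentage points for PBS minus Ctrl, -0.905 for FLX minus PBS and -0.523 for FLX minus Ctrl, with exact two-sided permutation p of 0.571, 0.130 and 0.394 (0.571, 0.390 and 0.571 adjusted over the 3 comparisons). A difference in the mtDNA share was thus not detectable against the spread between mice. In bulk tissue, fewer mitochondria-rich cells and less mtDNA RNA per cell cannot be told apart. Adding the counts of the 7 near-perfect copies brought the shares to 13.8% ± 1.49, 14.3% ± 1.37 and 13.04% ± 0.881, and the smallest adjusted p was 0.351.

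Within the mtDNA counts, mRNAs made up 98.6% ± 0.162 in Ctrl, 98.0% ± 0.224 in PBS and 98.0% ± 0.479 in FLX. Because the libraries were poly(A)-selected, these are shares of the selected RNA, not of all mtDNA-encoded RNA in the kidney. How much rRNA passed the selection was not measured, so rRNA values below are levels in the libraries. The 2 rRNAs held 0.987% ± 0.116 in Ctrl, 1.48% ± 0.170 in PBS and 1.62% ± 0.433 in FLX. Every mouse of PBS 1 to 5 (1.18% to 1.57%) lay above every Ctrl mouse (0.785% to 1.12%), and FLX mice ran from 1.11% to 2.16%, with FLX 6 alone inside the Ctrl range. The rRNA share was higher by 0.497 percentage points in PBS than in Ctrl (exact permutation p = 0.00433, the smallest that 5 against 6 mice can give, adjusted p = 0.0173 over 12 tests) and by 0.634 in FLX than in Ctrl (exact permutation p = 0.00433, adjusted p = 0.0173). FLX and PBS differed by 0.137 (exact permutation p = 0.524, adjusted p = 0.571). With the counts of the near-perfect copies added, the rRNA shares were 0.741% ± 0.0840 in Ctrl, 1.12% ± 0.129 in PBS and 1.22% ± 0.323 in FLX. Without PBS 5 and FLX 5, the mice richest in brown fat markers, the first 2 differences were 0.475 and 0.527, each with an adjusted p of 0.0381 by the exact permutation test.

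The 22 tRNAs held 0.462% ± 0.0643 of mtDNA counts in Ctrl, 0.516% ± 0.0604 in PBS and 0.387% ± 0.0622 in FLX. FLX mice ran from 0.302% to 0.485% and PBS mice from 0.428% to 0.575%, so that FLX 1 alone overlapped the PBS range. The tRNA share was lower in FLX than in PBS by 0.129 percentage points (exact permutation p = 0.00866, adjusted p = 0.0260), and the adjusted p was 0.0571 in the same exact permutation test without PBS 1, PBS 2, PBS 4 or PBS 5 and 0.0952 without both PBS 5 and FLX 5. The difference was 0.0539 for PBS minus Ctrl (exact permutation p = 0.186, adjusted p = 0.279) and -0.0749 for FLX minus Ctrl (exact permutation p = 0.0693, adjusted p = 0.119). With the copies' counts added, the tRNA shares were 0.347% ± 0.0476 in Ctrl, 0.388% ± 0.0448 in PBS and 0.292% ± 0.0464 in FLX.

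For each 100 counts on the 12 heavy-strand mRNAs there were 2.51 ± 0.196 counts on mt-Nd6, the light-strand mRNA, in Ctrl, 2.27 ± 0.0828 in PBS and 2.07 ± 0.177 in FLX. All FLX mice (1.83 to 2.26) were below all Ctrl mice (2.27 to 2.79). The difference of -0.442 between FLX and Ctrl passed the test (exact permutation p = 0.00216, the smallest that 6 against 6 mice can give, adjusted p = 0.0173). It was -0.239 between PBS and Ctrl (exact permutation p = 0.0346, adjusted p = 0.0831) and -0.203 between FLX and PBS (exact permutation p = 0.0519, adjusted p = 0.104). Without FLX 4 the last difference was -0.240, with an adjusted p of 0.0381 in the exact permutation test. The share of mRNA counts on the 3 complex IV genes (mt-Co1, mt-Co2 and mt-Co3) was 46.2% ± 1.69, 47.2% ± 0.828 and 46.6% ± 1.36 in Ctrl, PBS and FLX, and its adjusted p ranged from 0.375 to 0.634 in the exact permutation tests. Both measures depend on how the copies are counted. With the copies' counts added, the mt-Nd6 ratio was 1.87 ± 0.144, 1.69 ± 0.0601 and 1.54 ± 0.132 in Ctrl, PBS and FLX. The complex IV share was then 51.5% ± 1.93, 52.2% ± 1.02 and 51.6% ± 1.44.

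**Figure D2:**
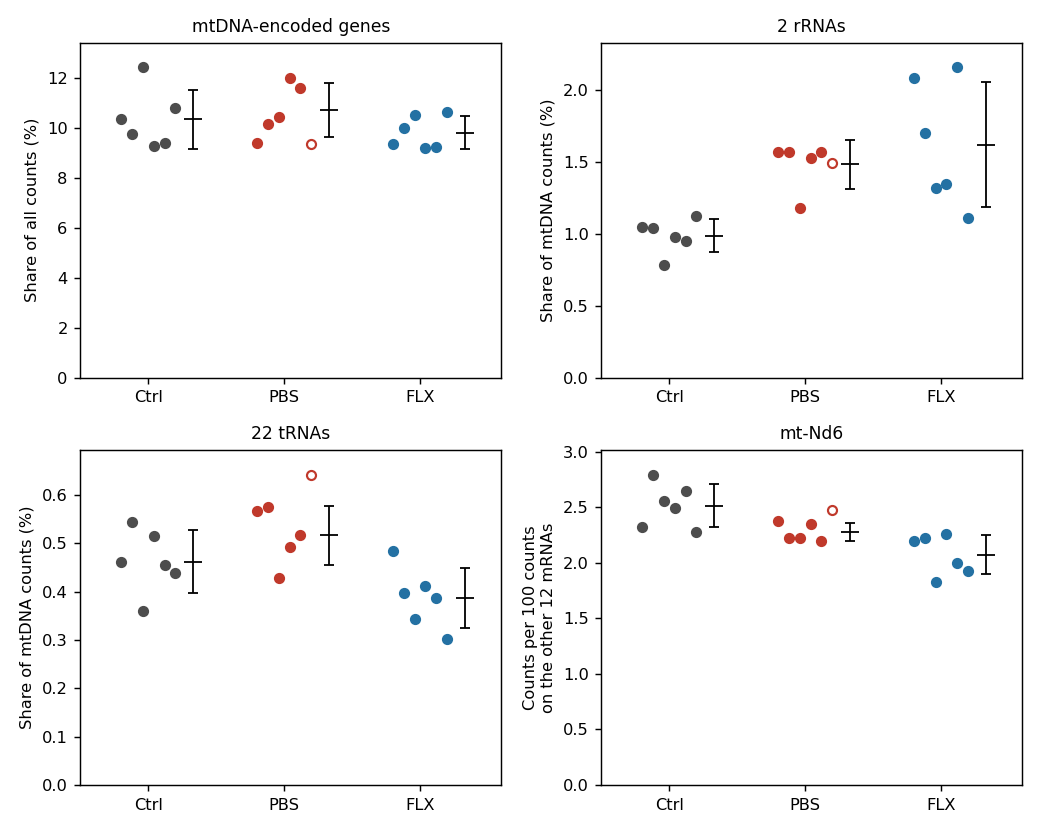
Share of all counts on mtDNA-encoded genes, shares of mtDNA counts on rRNAs and tRNAs (all in %), and mt-Nd6 counts per 100 counts on the other 12 mRNAs, with a point per mouse in mouse order. The open point is PBS 6, which was left out, and black bars are mean ± SD (n = 6, 5 and 6). The rRNA share of all 5 PBS mice is above that of all Ctrl mice, and mt-Nd6 of all FLX mice is below that of all Ctrl mice.

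Gene by gene, 35 of the 37 passed the filter on low counts and were tested with edgeR's quasi-likelihood test. The tRNA genes mt-Tf and mt-Tv, which frame mt-Rnr1, had 1 to 22 counts per mouse and were not tested. In PBS against Ctrl, 3 of 35 were higher at an adjusted p under 0.05 (mt-Rnr2, mt-Tl1 and mt-Tt) and 0 lower, beside 2.14% of all 20251 genes tested that were higher and 1.67% that were lower. At an unadjusted p under 0.05, 7 were higher, beside 9.18% of all genes, and 0 lower, beside 8.76%, in the same test, and DESeq2 gave 5 higher and 0 lower at an adjusted p under 0.05, beside 3.92% and 3.11% of all genes in DESeq2. In FLX against PBS, 3 of 35 were lower (mt-Tl1, mt-Te and mt-Tp), beside 0.420% of all genes, and 0 higher, beside 0.306%. At an unadjusted p under 0.05, 21 were lower and 0 higher in edgeR, beside 5.38% and 5.76% of all genes, and DESeq2 gave 10 lower and 0 higher at an adjusted p under 0.05, beside 1.22% and 1.24% of all genes in DESeq2. In FLX against Ctrl, 2 of 35 were higher (mt-Rnr1 and mt-Rnr2), beside 2.08% of all genes, and 2 lower (mt-Nd6 and mt-Te), beside 1.59%. At an unadjusted p under 0.05, 2 were higher and 6 lower there, each beside 10.2% of all genes, and DESeq2 gave 2 higher and 4 lower at an adjusted p under 0.05, beside 4.58% and 3.55%. FPKM of the tested members did not overlap between groups for 2 higher in PBS than in Ctrl (beside 1.77% of all genes) and 0 lower (1.75%), for 0 higher in FLX than in PBS (2.45%) and 3 lower (0.469%), and for 0 higher in FLX than in Ctrl (2.67%) and 2 lower (0.731%). The comparisons share mice: FLX against PBS and PBS against Ctrl use the same 5 PBS mice, and a high PBS value enters both with opposite sign.

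Fold changes over the 35 genes had a median log2 of 0.17 in PBS against Ctrl, -0.35 in FLX against PBS and -0.18 in FLX against Ctrl, while the medians of all genes were -0.01, -0.0027 and -0.01. In FLX against PBS, 34 of the 35 log2 fold changes were below zero, mt-Rnr1 being the exception, beside 50.5% of all genes. Over the 28 alternatives run, mt-Nd4l stayed below zero in 18 (from -0.07 to 0.09), among the exceptions upper-quartile scaling and the inclusion of PBS 6, and mt-Rnr2 and mt-Ti stayed below zero in 27 each, turning to 0.04 and 0.08 with FLX 1 and 2 alone. Members are cut from the same precursors and measured in the same libraries, so this count does not stand for 34 separate observations.

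**Figure D3:**
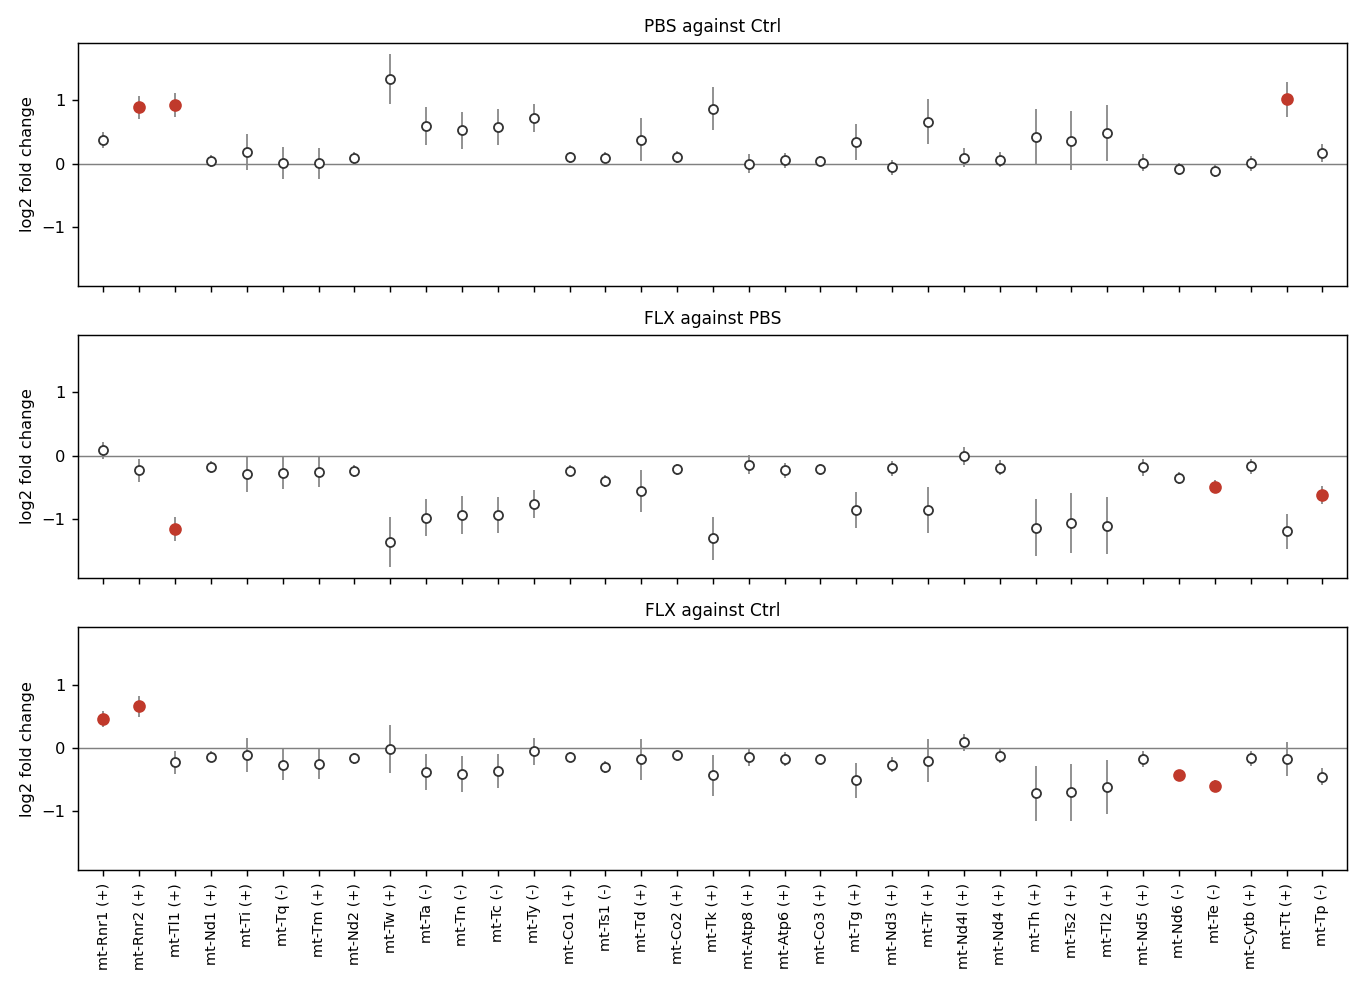
Log2 fold change (edgeR) with its standard error for the 35 tested genes in genome order, in the 3 comparisons, with the strand in brackets. Filled red points have an adjusted p under 0.05 over all genes. The 3 red points of PBS against Ctrl are above zero, the 3 of FLX against PBS below, and FLX against Ctrl has 2 above and 2 below.

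mt-Rnr2 was called higher in both defeated groups than in Ctrl, and mt-Rnr1 in FLX. mt-Rnr2 encodes the 16S rRNA of the large mitochondrial ribosomal subunit and lies at MT:1094-2675 (+ strand). Its level was 293, 284, 297, 257, 247 and 342 FPKM in Ctrl 1 to 6, 476, 489, 362, 648 and 652 in PBS 1 to 5 (573 in PBS 6), and 617, 504, 406, 383, 619 and 330 in FLX 1 to 6. All PBS mice were above all Ctrl mice, beside 1.77% of all genes tested, and FLX 6 alone of the FLX mice fell within the Ctrl range. The mean was 287 ± 33.6 in Ctrl, 526 ± 124 in PBS and 477 ± 123 in FLX. The log2 fold change was 0.89 ± 0.18 (SE) in PBS against Ctrl (edgeR adjusted p = 0.00932) and 0.65 ± 0.17 in FLX against Ctrl (edgeR adjusted p = 0.0413). The first call held when any of the 17 mice was left out. The second was lost without any of Ctrl 1, 2, 4, 5 and 6, FLX 1, 2 and 5 and PBS 1, with edgeR adjusted p of 0.0501 to 0.0938. With all 18 mice that fold change was 0.65 and was not called (edgeR adjusted p = 0.0540). FLX against PBS gave -0.23 ± 0.18 (edgeR adjusted p = 0.716).

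mt-Rnr1, the 12S rRNA of the small ribosomal subunit (MT:70-1024, + strand), was at 497, 444, 393, 388, 394 and 511 FPKM in Ctrl 1 to 6 and at 525, 625.2, 525, 581 and 562 in PBS 1 to 5. In FLX 1 to 6 it was at 724, 692, 586, 490.5, 785 and 533. PBS 1 to 5 did not overlap with Ctrl, but PBS 6, at 305 FPKM, was the lowest mouse of the series. The log2 fold change was 0.37 ± 0.13 in PBS against Ctrl (edgeR adjusted p = 0.120), or 0.25 with PBS 6 included (adjusted p = 0.417). In FLX against Ctrl it was 0.45 ± 0.12 (edgeR adjusted p = 0.0458), or 0.45 with all 18 mice (adjusted p = 0.153). That call was lost without any of 12 mice (Ctrl 1, 2, 4, 5 and 6, FLX 1, 2 and 5, PBS 1 to 4), with edgeR adjusted p of 0.0501 to 0.102. Without PBS 5 and FLX 5 together, mt-Rnr1 and mt-Rnr2 in FLX against Ctrl gave log2 fold changes of 0.40 and 0.58 (edgeR adjusted p = 0.106 and 0.0873).

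mt-Tl1, which lies directly between mt-Rnr2 and mt-Nd1, was higher in PBS than in both other groups. It was at 397, 277, 389, 415, 294 and 275 FPKM in Ctrl, 582, 597, 388, 798 and 847 in PBS 1 to 5 (889 in PBS 6) and 354, 245, 339, 407, 296 and 212 in FLX. PBS 3 alone overlapped the Ctrl and FLX mice. The log2 fold change was 0.93 ± 0.19 in PBS against Ctrl (edgeR adjusted p = 0.0107) and -1.16 ± 0.19 in FLX against PBS (edgeR adjusted p = 0.00805), and both calls held without any of the 17 mice. In FLX against Ctrl it was -0.23 ± 0.18 (edgeR adjusted p = 0.519), so in FLX mt-Rnr2 was called higher than in Ctrl while its neighbour mt-Tl1 was not. The difference between these 2 genes was not tested.

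mt-Tt was far less abundant, with 29 to 579 counts per mouse. Its level was 11.7, 15.5, 13.3, 13.8, 11.3 and 7.84 FPKM in Ctrl, 22.9, 19.8, 14.7, 25.8 and 40.8 in PBS 1 to 5, and 16.5, 10.7, 9.34, 15.3, 9.46 and 7.15 in FLX. PBS 6 stood at 102 FPKM. PBS 3 again was the mouse that overlapped the other groups. PBS against Ctrl gave a log2 fold change of 1.01 ± 0.28 (edgeR adjusted p = 0.0472). It lost the call without any of 11 mice (Ctrl 1, 2, 4, 5 and 6, FLX 2 and 3, PBS 1, 2, 4 and 5), with edgeR adjusted p of 0.0516 to 0.131. The call was also lost without PBS 5 and FLX 5 together. FLX against PBS gave -1.19 ± 0.28 (edgeR adjusted p = 0.0545), or -1.77 with PBS 6 included (adjusted p = 0.0420).

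The light-strand genes mt-Nd6 and mt-Te, which adjoin each other, were lower in FLX. mt-Nd6 encodes a membrane subunit of complex I (MT:13552-14070, - strand). It was at 3863, 4317, 5116, 3673, 3953 and 3858 FPKM in Ctrl, 3495, 3590, 3746, 4480 and 4054 in PBS 1 to 5 (3648 in PBS 6), and 3221, 3508, 3098, 3337, 2952 and 3329 in FLX. FLX did not overlap with Ctrl, beside 0.731% of all genes tested that were lower in every FLX mouse, and overlapped with PBS by FLX 2 alone. FLX against Ctrl gave a log2 fold change of -0.43 ± 0.09 (edgeR adjusted p = 0.0132). The call held when any of the 17 mice was left out, but limma on log2(FPKM + 1) and log2(FPKM + 0.1) gave -0.34 each, with adjusted p of 0.0954 and 0.138. In FLX against PBS it was -0.35 ± 0.09 (edgeR adjusted p = 0.0897), and in PBS against Ctrl -0.08 ± 0.09 (edgeR adjusted p = 0.707). Its first 14 reference bases overlap the end of mt-Nd5 on the opposite strand, and the sources used here do not state whether reads were counted by strand. If they were not, precursor RNA of the opposite strand would add to the counts of mt-Nd6 and the other light-strand genes over their whole length. The part of such RNA in these values was not tested.

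mt-Te was at 1611, 1877, 2165, 1439, 1664 and 1589 FPKM in Ctrl, 1515, 1489, 1452, 1853 and 1575 in PBS 1 to 5 (2037 in PBS 6) and 1199, 1283, 1136, 1158, 1098 and 1323 in FLX. Every FLX mouse was below every mouse of both other groups, beside 0.469% of all genes in FLX against PBS. The log2 fold change was -0.61 ± 0.10 in FLX against Ctrl (edgeR adjusted p = 0.00313), which held without any mouse, and -0.49 ± 0.10 in FLX against PBS (edgeR adjusted p = 0.0308). The latter was lost without FLX 1, 3, 4 or 5 or PBS 1 or 4, with edgeR adjusted p of 0.0537 to 0.102, and with limma on the same FPKM scales (adjusted p = 0.0985 and 0.121). It was also lost in edgeR without PBS 5 and FLX 5 together. PBS against Ctrl gave -0.12 ± 0.10 (edgeR adjusted p = 0.602).

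mt-Tp, the last gene before the control region, was at 615, 642, 359, 529, 488 and 536 FPKM in Ctrl, 531, 726, 663, 510.5 and 542 in PBS 1 to 5 and 443, 471, 348, 368, 437 and 395 in FLX. FLX lay below PBS 1 to 5 without overlap, but PBS 6, at 427 FPKM, was inside the FLX range. FLX against PBS gave a log2 fold change of -0.62 ± 0.14 (edgeR adjusted p = 0.0493), and -0.55 with PBS 6 (adjusted p = 0.0979). The call was lost without any of 14 mice (Ctrl 1, 4, 5 and 6, each FLX mouse, and PBS 1 to 4), with edgeR adjusted p of 0.0548 to 0.112. Leaving out PBS 5 and FLX 5 together also took it away. mt-Ts1, the tRNA gene opposite the end of mt-Co1, gave -0.40 ± 0.09 in FLX against PBS (edgeR adjusted p = 0.0538) and -0.30 ± 0.09 in FLX against Ctrl (edgeR adjusted p = 0.0638). Its means were 1855 ± 104 FPKM in Ctrl, 1969 ± 155 in PBS and 1594 ± 158 in FLX.

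With FLX 1 and 2 alone, the FLX mice sequenced as deeply as the other groups, no member was called in FLX against PBS or FLX against Ctrl by edgeR, where 4 members each had an unadjusted p under 0.05. Over all genes this fit called 0 and 4. The fold changes kept their direction there for all 7 calls that involve FLX: mt-Nd6 -0.33, mt-Te -0.51, mt-Rnr1 0.66 and mt-Rnr2 0.94 against Ctrl, and mt-Tl1 -1.15, mt-Te -0.40 and mt-Tp -0.42 against PBS. The part of the lower depth of FLX 3 to 6 in these results was not tested further.

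**Figure D4:**
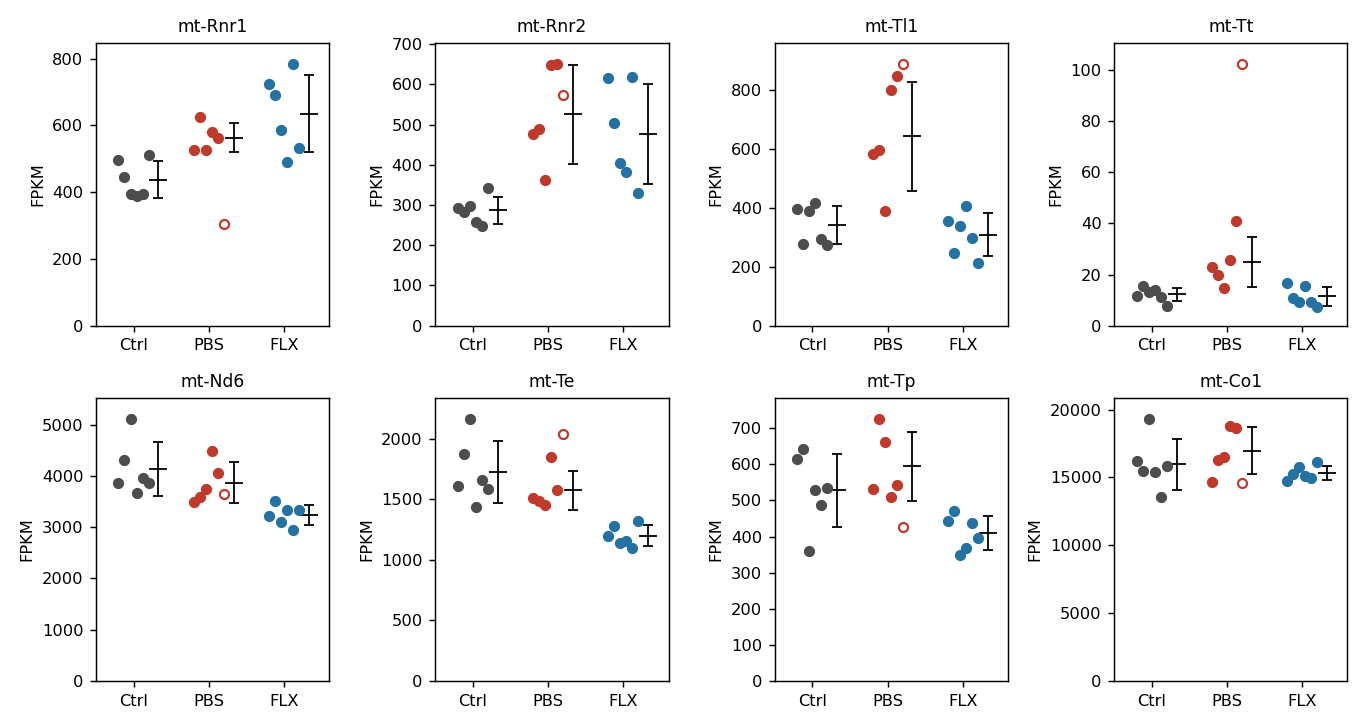
FPKM of the 2 rRNAs, the 4 tRNAs called in a comparison, mt-Nd6 and, for scale, mt-Co1, with a point per mouse in mouse order and axes from 0. The open point is PBS 6, which was left out, and black bars are mean ± SD (n = 6, 5 and 6). PBS 1 to 5 sit above Ctrl for mt-Rnr1 and mt-Rnr2, and FLX sits below both groups for mt-Te.

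The 12 mRNAs of the heavy strand passed the test in no comparison: edgeR's adjusted p was 0.592 or more in PBS against Ctrl, and the log2 fold changes of all 13 mRNAs lay between -0.08 and 0.10 there. Of the 13, 0 had an unadjusted p under 0.05 in that comparison. Per length, mt-Co1, the catalytic subunit of complex IV, was the most abundant, at 15976 ± 1869 FPKM in Ctrl, 16975 ± 1720 in PBS and 15345 ± 529 in FLX. Its partner subunits followed: mt-Co2 at 11508 ± 837, 12298 ± 908 and 11254 ± 944 FPKM, and mt-Co3 at 9926 ± 610, 10172 ± 828 and 9319 ± 639, in the same order of groups. mt-Cytb, the only complex III subunit of mtDNA, stood at 9434 ± 1786, 9356 ± 1314 and 8887 ± 861.5.

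The ATP synthase genes were at 8265 ± 1567, 8510 ± 1154 and 7719 ± 806 FPKM for mt-Atp6 and 6589 ± 1742, 6506 ± 912 and 6266 ± 1029 for mt-Atp8 in Ctrl, PBS and FLX. Among the complex I subunits mt-Nd1 was highest, at 9402 ± 652, 9611 ± 837 and 9031 ± 1102. Complex I, which passes electrons from NADH into the chain, takes more mtDNA-encoded subunits than any other complex. The next were mt-Nd2 at 6094 ± 469, 6404 ± 696 and 5751 ± 712, and mt-Nd4 at 4532 ± 910, 4685 ± 634 and 4389 ± 405. mt-Nd3 was at 3836 ± 454, 3666 ± 381 and 3386 ± 457, mt-Nd4l at 2097 ± 611, 2210 ± 352 and 2349 ± 274, and mt-Nd5 at 2075 ± 551, 2067 ± 318 and 1944 ± 198. Within each group mt-Cytb overlapped with mt-Nd1, and mt-Nd4l with mt-Nd5, whereas mt-Nd1 did not overlap with mt-Nd2 in any group. mt-Co1 did not overlap with mt-Co2 in any group, although the chromosome 1 copies leave both levels uncertain.

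In FLX against PBS all 13 mRNAs had log2 fold changes below zero, from -0.35 for mt-Nd6 to -0.01 for mt-Nd4l (below zero in 18 of 28 alternatives), with a median of -0.20 and an adjusted p of 0.0897 or more. Values for the complex IV genes were -0.24 ± 0.08 for mt-Co1 (edgeR adjusted p = 0.241), -0.22 ± 0.09 for mt-Co2 (adjusted p = 0.327) and -0.22 ± 0.08 for mt-Co3 (adjusted p = 0.296). The corresponding value for mt-Nd2 was -0.25 ± 0.10 (edgeR adjusted p = 0.308). These 4 genes and mt-Nd6 were the mRNAs with an unadjusted edgeR p under 0.05 in FLX against PBS, beside 5.38% of all genes lower. In FLX against Ctrl the heavy-strand mRNAs ranged from -0.26 for mt-Nd3 (edgeR adjusted p = 0.191) to 0.09 for mt-Nd4l (adjusted p = 0.779). There mt-Nd3, mt-Co3 and mt-Nd6 had an unadjusted edgeR p under 0.05, all lower, beside 10.2% of all genes.

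**Figure D5:**
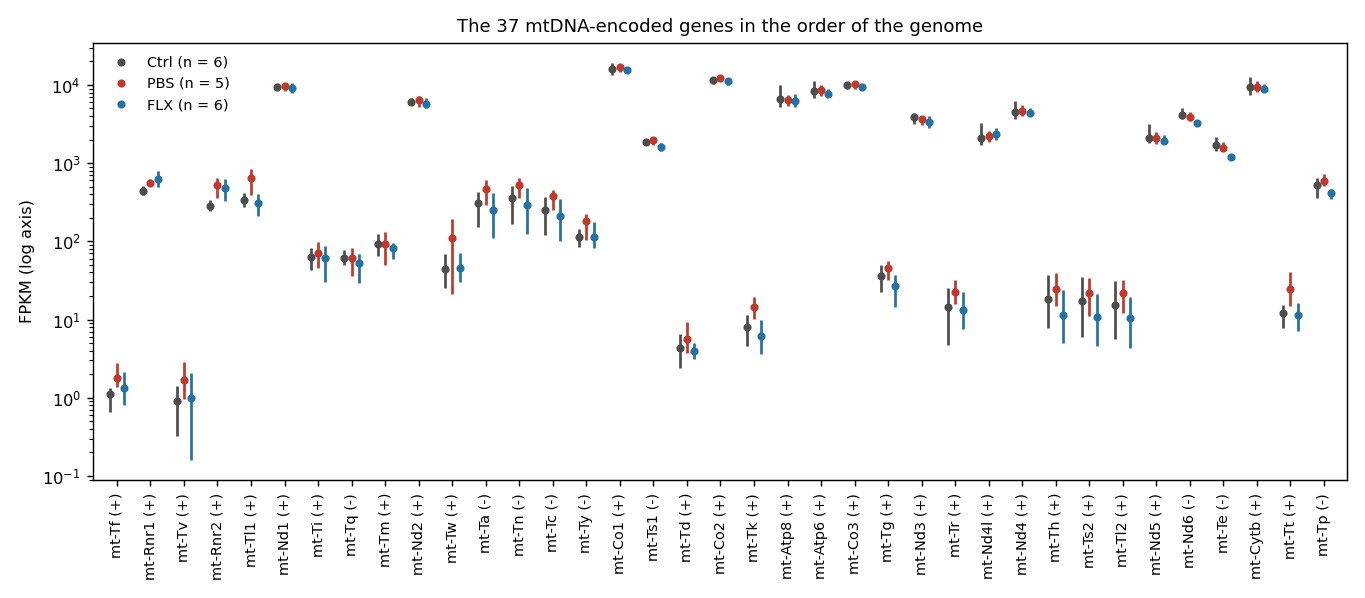
FPKM on a log axis for the 37 mtDNA-encoded genes in genome order with the strand in brackets. Points are group means and lines run from the lowest to the highest mouse of Ctrl (n = 6), PBS (n = 5) and FLX (n = 6). The mRNAs lie above all rRNAs and all tRNAs in group means except that mt-Ts1 approaches mt-Nd5, and mt-Tf and mt-Tv lie near 1 FPKM.

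The remaining tRNA genes varied widely between mice of the same group, with a coefficient of variation up to 65.0% over the 22 tRNAs, against 29.1% at most over the 13 mRNAs. The cluster of 5 tRNA genes between mt-Nd2 and mt-Co1 (mt-Tw on the heavy strand, mt-Ta, mt-Tn, mt-Tc and mt-Ty on the light strand) had its highest means in PBS. mt-Tw averaged 43.9 ± 15.7 FPKM in Ctrl, 110 ± 63.1 in PBS and 45.9 ± 19.4 in FLX, with a log2 fold change of 1.34 ± 0.40 in PBS against Ctrl (edgeR adjusted p = 0.0690) and -1.36 ± 0.40 in FLX against PBS (adjusted p = 0.136). PBS 3, at 21.1 FPKM, was the lowest mouse of the series for mt-Tw, and without it edgeR called mt-Tw and mt-Ty in both of these comparisons. For mt-Ty the 2 values were 0.71 ± 0.22 (edgeR adjusted p = 0.0843) and -0.77 ± 0.22 (adjusted p = 0.135). mt-Ta, mt-Tn and mt-Tc gave 0.52 to 0.59 in PBS against Ctrl and -0.98 to -0.94 in FLX against PBS, with an adjusted p of 0.154 or more.

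The sparse heavy-strand tRNAs mt-Th, mt-Ts2 and mt-Tl2, which lie in a row between mt-Nd4 and mt-Nd5, averaged 10.3 to 24.6 FPKM in the groups. Their log2 fold changes were -1.06 to -1.14 in FLX against PBS, with edgeR adjusted p of 0.317 to 0.399. mt-Tk, between mt-Co2 and mt-Atp8, was at 10.1 to 19.7 FPKM in PBS 1 to 5 and 3.63 to 10.01 in FLX, which did not overlap, and gave -1.30 ± 0.34 (edgeR adjusted p = 0.0872). mt-Tg and mt-Tr, which flank mt-Nd3, gave -0.86 ± 0.28 and -0.86 ± 0.36 (edgeR adjusted p = 0.199 and 0.353), and mt-Td gave -0.56 ± 0.34 (adjusted p = 0.600). The trio mt-Ti, mt-Tq and mt-Tm between mt-Nd1 and mt-Nd2 ranged from -0.26 to -0.29 in FLX against PBS and gave at most 0.18 in PBS against Ctrl, with edgeR adjusted p of 0.778 or more.

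Nuclear genes that make and maintain mitochondrial RNA showed few calls. Of 60 such genes in 4 lists (transcription, RNA processing and stability, mtDNA replication, biogenesis regulators), all tested, 0 were called by edgeR in PBS against Ctrl or in FLX against PBS, and 2 were lower in FLX against Ctrl, beside 1.59% of all genes. At an unadjusted p under 0.05, 8 were higher and 10 lower in the first comparison (beside 9.18% and 8.76% of all genes), 5 and 1 in the second (5.76% and 5.38%) and 7 and 10 in the third (10.2% each). DESeq2 called 2 of the 60 higher and 4 lower in the first (beside 3.92% and 3.11% of all genes in DESeq2), 0 and 0 in the second (1.24% and 1.22%) and 4 and 4 in the third (4.58% and 3.55%). Their median log2 fold changes were -0.0030, -0.03 and -0.02. The 2 called belong to the 14 genes of mtDNA replication. Tk2, the mitochondrial thymidine kinase that supplies nucleotides for mtDNA, was at 6.85 ± 0.525 FPKM in Ctrl, 5.43 ± 1.13 in PBS and 5.19 ± 0.509 in FLX, a log2 fold change of -0.49 ± 0.11 in FLX against Ctrl (edgeR adjusted p = 0.0206, or 0.0523 to 0.0580 without Ctrl 2, Ctrl 5 or FLX 5). Polg2, the accessory subunit of mtDNA polymerase, was at 1.93 ± 0.324, 1.34 ± 0.133 and 1.32 ± 0.255 FPKM, a log2 fold change of -0.63 ± 0.15 in FLX against Ctrl (edgeR adjusted p = 0.0291, or 0.0598 to 0.0739 without Ctrl 1, 2 or 5 or FLX 5 or 6). The Polg2 call was also lost without PBS 5 and FLX 5 together. For both genes all FLX mice were below all Ctrl mice, beside 0.731% of all genes tested.

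In the other lists the smallest p values belonged, in PBS against Ctrl, to Mterf1b (transcription termination factor family, log2 fold change -0.50 ± 0.23, edgeR adjusted p = 0.257), Fastkd2 (mitochondrial RNA binding, -0.24 ± 0.07, adjusted p = 0.0800) and Pprc1 (a coactivator of the PGC-1 family, 0.59 ± 0.19, adjusted p = 0.0910), with Polg2 at -0.53 ± 0.16 (adjusted p = 0.0747). In FLX against PBS they belonged to Mterf3 (-0.07 ± 0.08, edgeR adjusted p = 0.845), Fastkd2 (0.17 ± 0.07, adjusted p = 0.376), Twnk, the mtDNA helicase (0.23 ± 0.07, adjusted p = 0.170), and Gabpa (0.28 ± 0.11, adjusted p = 0.305). In FLX against Ctrl they belonged to Mrpl12 (-0.47 ± 0.18, edgeR adjusted p = 0.161), Fastkd5 (0.35 ± 0.10, adjusted p = 0.0662) and Sirt3, a mitochondrial deacetylase (-0.40 ± 0.12, adjusted p = 0.0733).

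The respiratory chain subunits encoded in the nucleus assemble with those of mtDNA. Of 75 such genes tested, edgeR called 0 in PBS against Ctrl, 1 lower in FLX against PBS (beside 0.420% of all genes) and 0 in FLX against Ctrl. At an unadjusted p under 0.05, 4 were higher in PBS against Ctrl (beside 9.18% of all genes), 23 lower in FLX against PBS (5.38%) and 22 lower in FLX against Ctrl (10.2%), with 0 in the other direction. DESeq2 called 1 higher (beside 3.92% of all genes in DESeq2), 2 lower (1.22%) and 2 lower (3.55%) in the same order. The median log2 fold change was 0.05, -0.25 and -0.22 in these comparisons, beside 0.04, -0.20 and -0.17 for the 13 mtDNA mRNAs and -0.01, -0.0027 and -0.01 for all genes. In FLX against PBS every one of the 75 values was below zero, from -0.52 to -0.03, beside 50.5% of all genes. These subunits were measured in the same libraries, so the count does not stand for 75 separate observations. The gene called was Uqcrb of complex III, at 193 ± 9.46 FPKM in Ctrl, 217 ± 13.4 in PBS and 182 ± 15.6 in FLX, with a log2 fold change of -0.35 ± 0.08 (edgeR adjusted p = 0.0449). Leaving out any mouse other than Ctrl 3 or PBS 5 took that call away, with edgeR adjusted p of 0.0506 to 0.140.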

How the data were processed

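RNA-seq of 18 kidneys was analysed from the table of estimated counts and FPKM per gene that the authors deposited. The authors made poly(A)-selected, dUTP-stranded libraries and read 150-base pairs; their methods name fastp, HISAT-3N, GRCm38 and StringTie, and the submitters' processing notes name HISAT2 2.0.4 and StringTie 1.3.4d. The FPKM values were normalised by the authors for gene length and depth. The deposited estimated counts were whole numbers but held more 4s than neighbouring values (a median of 720 genes per mouse at 4 and 484.5 at 3), and were used as they stood. Differential expression was tested with edgeR 4.0.16 (TMM scaling, filterByExpr, quasi-likelihood test, Benjamini-Hochberg over all 20251 genes) in 1 model over 17 mice, without PBS 6. DESeq2 1.42.0 and limma 3.58.1 (on log2 FPKM with a pseudocount of 1 or 0.1) were alternatives. Shares were compared by exact two-sided permutation tests in SciPy 1.17.1. Nuclear copies were found with BLAST 2.17.0 among GENCODE transcripts (identity of at least 95% over at least 100 bases). The mice, 1 library each, were the replicates. The model fit was checked on simulated counts, and the permutation test on a fixed ordered sequence whose smallest p is known. The members, gene lists and tests were chosen with earlier results of these data known. Every member is accounted for: mRNAs and rRNAs with values, tRNAs by name; of the nuclear lists, genes called in any comparison and the smallest p of each list are named.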

Additional observations from a re-analysis of the deposited data

Results flagged for a closer look

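In 126 groups of mouse values (37 genes and 5 shares in 3 groups), 6 held a mouse farther from the others than the 95% limit of Dixon's test; chance flags about 1 in 20 groups. Of these, 4 were high values of Ctrl 3, in adjoining or nearby genes: mt-Atp8 at 9872 FPKM against 5259 to 6850 in the other Ctrl mice, mt-Atp6 at 11237 against 6852 to 8422, mt-Nd4l at 3283 against 1701 to 2147 and mt-Nd5 at 3197 against 1796 to 1904. PBS 3 had the lowest rRNA share of mtDNA counts in its group, at 1.18% against 1.53% to 1.57%. PBS 5 had the highest mt-Td level in its group, at 9.39 FPKM against 3.74 to 5.33.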

How the results depend on the processing

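Under 28 alternatives per comparison, each of the 10 called fold changes kept its direction (280 values, of which 87 missed the threshold). mt-Rnr2 and mt-Tl1 in PBS against Ctrl passed under all 28. Of 2657 values for uncalled members, 96 turned direction and 32 passed. With DESeq2, 5 members in PBS against Ctrl, 10 in FLX against PBS, 6 in FLX against Ctrl and, over all genes, 1424, 498 and 1645 were called (772, 147 and 744 in edgeR, the order being PBS against Ctrl, FLX against PBS, FLX against Ctrl). With all 18 mice 5 members were called in PBS against Ctrl and 2 in FLX against Ctrl, where all genes called fell to 354. Without a filter on low counts 2 members were called in FLX against Ctrl, and 88 and 378 genes in all in the FLX comparisons. With limma on log2(FPKM + 1) the FLX comparisons called 242 and 1197 genes, and with log2(FPKM + 0.1) 255 and 1214. FLX 1 and 2 alone gave 0 members in both FLX comparisons and 0 and 4 genes in all. Leaving out PBS 5 and FLX 5, an alternative chosen after seeing the data, gave 1 and 2 members in the FLX comparisons and 350 genes in all in FLX against Ctrl; it took the tRNA share in FLX against PBS to -0.128 (exact permutation, adjusted p = 0.0952). Upper-quartile scaling turned the split of all calls in PBS against Ctrl from 433 higher and 339 lower to 314 and 449, with 340 higher and 412 lower against 422 and 322 in FLX against Ctrl, while limma on log2(FPKM + 1) gave 182 higher and 60 lower against 62 and 85 in FLX against PBS and 958 and 239 in FLX against Ctrl. The cause of these shifts was not tested.

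With FLX 1 and 2 alone, the rRNA share in PBS against Ctrl kept its difference of 0.497 (adjusted p = 0.0519 by exact permutation, from the larger p of the other tests adjusted with it), and the rRNA share in FLX against Ctrl was 0.908, the tRNA share in FLX against PBS -0.0756 and mt-Nd6 per 100 counts in FLX against Ctrl -0.306; the smallest p that 2 FLX mice allow is 0.0714 against 6 Ctrl and 0.0952 against 5 PBS mice, so neither comparison can pass. Pairing mice by replicate number (replicate block) is not given by the design: same-numbered mice correlated at -0.205 to 0.227 in their deviations, 2 of 16 pairs above 0.1, and 3 of 16 correlated best with their own number. The block gave 1 member in each FLX comparison and 419, 67 and 258 genes in all. Sign flips over same-numbered mice gave 0.524 and 0.634 for the rRNA share against Ctrl in PBS and FLX, -0.112 for the tRNA share in FLX against PBS and -0.442 for mt-Nd6 in FLX against Ctrl, each with an adjusted p of 0.150 by exact sign flips; the smallest p of 5 and 6 pairs is 0.0625 and 0.0312.

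Leaving out each mouse in turn, members called ranged from 2 to 5 in PBS against Ctrl (5 without PBS 3), 1 to 6 in FLX against PBS (6 without Ctrl 3 or PBS 3, 1 without FLX 1, 3, 4 or 5 or PBS 1 or 4) and 2 to 6 in FLX against Ctrl (6 without Ctrl 3, 2 without Ctrl 1, 2, 4, 5 or 6, FLX 1 or 5 or PBS 1). All genes called ranged from 388 to 1662, 47 to 250 and 271 to 3099, with each highest value reached without Ctrl 3. The tRNA share in FLX against PBS ranged from -0.151 to -0.112, and mt-Nd6 per 100 counts in FLX against PBS from -0.240 to -0.154. Of the other tests of shares, the complex IV share turned sign, uncalled, under 2 alternatives. Adding the copies' counts left 3, 3 and 4 members called. Depth limits the rare tRNAs: mt-Td had 14 to 56 counts per mouse.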
